A study of Mus musculus with 6 samples.

Results

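Solute carriers are the membrane proteins that move amino acids, ions, metals, sugars, nucleotides, vitamins and lipids across the cell surface and the membranes of organelles. The genes examined were those in the authors' table of Snai2-/- against control cells whose symbol begins with Slc and a number, or with Slco and a number, which was 32 of 1285 genes in the table. The cells were the mesenchymal stem and progenitor cells (MSPCs) of adult mouse bone marrow, stromal cells of the niche in which blood stem cells live. Each library was made from 2000 sorted cells that were negative for the leukocyte marker CD45, the erythroid marker Ter119 and the endothelial marker CD31, and positive for a green fluorescent reporter of nestin (Nes-GFP), which both genotypes carried under the same gate. The groups were control, with 3 libraries, and Snai2-/-, with 3 libraries from littermates that lack Snai2, the gene of the zinc-finger repressor Slug, all at 8 weeks of age. The sources used here do not say in which cells Snai2 was deleted, the sex of the animals, or whether each library came from its own animal.

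Every value is a mean over the 3 libraries of a genotype on a normalized scale of the authors, and the sources used here do not give its unit. Values of single libraries were not analysed here, so no spread, sample error or depth stands beside a mean, and ratios were taken as the Snai2-/- mean over the control mean. Only genes with an unadjusted p below 0.05 are in the authors' deposited table, and its false discovery rates (FDR) correspond to 16718 genes tested. A gene outside the table had a larger p or was not tested, and those cases cannot be told apart. Snai2 itself had deposited means of 636.0 in control and 9.20 in Snai2-/- cells. Keeping genes by p favours large ratios, above all where means are low. In bulk RNA, a change in the number of cells of a type and a change of RNA per cell cannot be told apart.

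Solute carriers fall into families by sequence, numbered in their symbols, and the members of a family mostly share a kind of substrate. Some work alone, while others need a partner, such as the single-pass heavy chain Slc3a2 that carries several amino acid exchangers of the Slc7 family to the cell surface. In cells that make bone matrix, amino acid uptake feeds the synthesis of collagen, and phosphate and calcium carriers serve mineral formation. The members were sorted into substrate classes by family, except single genes that were placed by their own substrate, such as Slc2a9. Slc25 was kept as the class of mitochondrial carriers and Slc35 as that of nucleotide sugars.

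Snai2-/- cells had the higher mean for 20 of the 32 listed members and the lower mean for 12, and the lowest FDR that the authors' deposited table gives a member is 0.199. Among all genes tested, 7.69% were listed, 3.77% as higher and 3.91% as lower in Snai2-/- cells. RefSeq holds 389 protein-coding genes that match the symbol rule, so 8.23% of them were listed, beside 5.32% of all 21900 protein-coding genes. Which of these were expressed and tested is not known. The median log2 ratio of the members was 0.74, whereas that of all listed genes was -0.36. Few listed genes lie near 0, so these medians mostly restate which direction held the majority. Higher genes were 62.5% of the members and 49.1% of all listed genes. An unadjusted p below 0.01 was reached by 12 members, 11 higher and 1 lower, and 6 of the 12 were amino acid carriers. These 12 are 37.5% of the listed members, beside 28.4% of all listed genes, and 2.18% of all genes tested reached that p. How all listed genes at that p split by direction was not counted, so the split of the members has no background. A difference of at least 2-fold was seen in 17 members, or 53.1%, beside 45.9% of all listed genes. The members came from 24 of 52 families, and no family held more than 3 of them.

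Classes held different shares of higher and lower members. All 9 listed genes of the amino acid class had higher means in Snai2-/- cells, with a median log2 ratio of 1.68. They include the heavy chain Slc3a2 and Slc7a4, whose own transport activity is not established. The log2 ratio of Slc7a4, 1.68, is itself that median, and no median without these genes was computed. The other 23 members split into 11 higher and 12 lower, with a median of -0.46. Higher genes were 47.8% of these 23 and 49.1% of all listed genes. Setting aside a class whose members were all higher must lower the share, so its nearness to 49.1% says nothing about that class. The 9 are 14.8% of the 61 genes of their class in RefSeq. The 3 metal carriers and the 2 mitochondrial carriers were higher, the 3 carriers of organic ions and the 2 of vitamins lower, and the listed ion and nucleotide sugar carriers went both ways. The split of the nucleotide sugar class rests on Slc35g1 and Slc35g2, whose substrates are uncertain, and without them 1 member, lower, is left. No carrier of sugars (24 genes in RefSeq), inorganic phosphate (5), peptides (5) or vesicular amines (8) was listed. For sugars this holds with Slc2a9, of the hexose family by sequence, counted among organic ions. Classes were compared by counts and medians only, and no test of a difference between them was made.

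**Figure D1:**
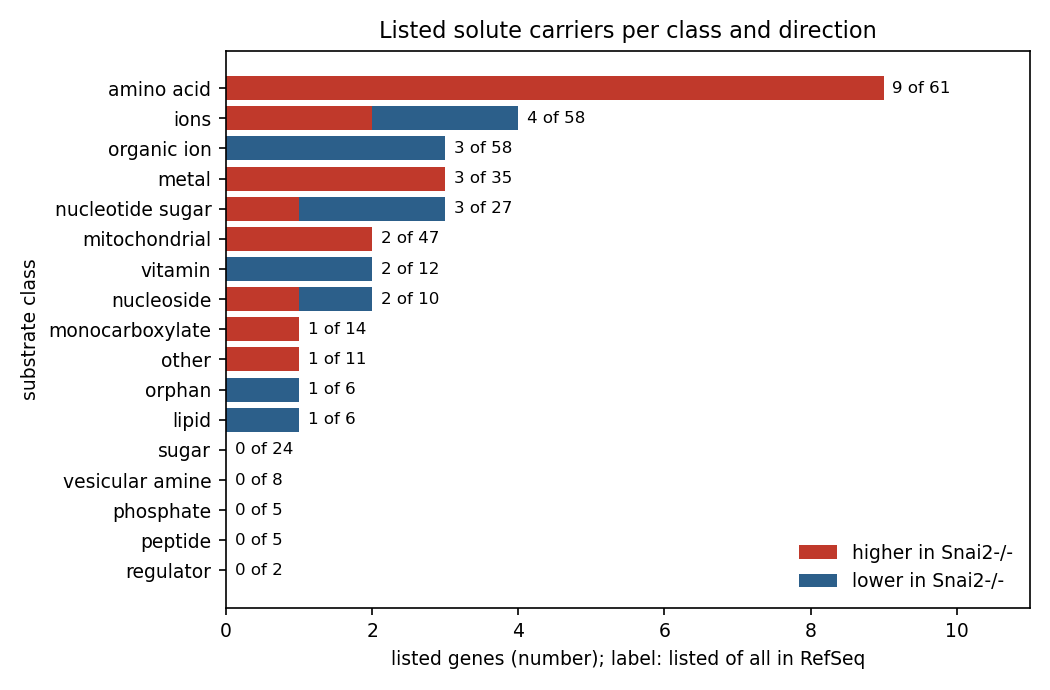
Number of listed solute carriers (horizontal axis) in each substrate class (vertical axis), split into genes that were higher (red) and lower (blue) in Snai2-/- cells. The label beside each bar gives the listed genes of all RefSeq genes in the class, from 9 of 61 for amino acids, all higher, to 0 of 24 for sugars.

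Because Slug is a repressor that binds the E-box core CAGGTG, the promoters of the members were read from RefSeq (GRCm38.p6, the assembly that mm10 denotes), from 250 bases before to 50 after the start of each gene. Of the 32 members, 25 had an entry, and those without were Slc6a15, Slc7a4, Slc17a9, Slc36a2, Slc45a4, Slc48a1 and Slco3a1. None of the 25 held CAGGTG on either strand. The letters were present for 22.6% of the 27025 genes in the promoter table, for 27.7% of its 307 solute carriers and for 24.7% of the 941 listed genes it holds. The general E-box CANNTG, which includes CAGGTG, was found in 20 of the 25 (80.0%). It was found for 75.0% of all genes, 78.8% of the solute carriers and 68.0% of the listed genes in the promoter table. TGATGNAA, a pattern of the amino acid response element searched on both strands, was found for Slc1a4 and Slc9a9. The same pattern was found for 4.51% of all genes, 3.91% of the solute carriers and 3.29% of the listed genes. These are matches of letters in a short window, and nothing about the binding of Slug follows from their presence or absence.

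The 250 bases before the start are shown for the member with the smallest p and for 3 amino acid carriers, to let the reader see which E-box letters they hold in place of CAGGTG. They are from RefSeq on GRCm38.p6, written 5′ to 3′ on the strand of the gene, with CANNTG in capitals.
Slc35g1 (chr19:38395730-38395979, plus strand): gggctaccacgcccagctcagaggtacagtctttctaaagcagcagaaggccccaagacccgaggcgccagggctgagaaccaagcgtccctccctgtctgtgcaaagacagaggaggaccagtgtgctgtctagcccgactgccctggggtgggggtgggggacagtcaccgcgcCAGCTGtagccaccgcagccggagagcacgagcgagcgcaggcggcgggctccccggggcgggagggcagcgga
Slc7a1 (chr5:148399905-148400154, minus strand): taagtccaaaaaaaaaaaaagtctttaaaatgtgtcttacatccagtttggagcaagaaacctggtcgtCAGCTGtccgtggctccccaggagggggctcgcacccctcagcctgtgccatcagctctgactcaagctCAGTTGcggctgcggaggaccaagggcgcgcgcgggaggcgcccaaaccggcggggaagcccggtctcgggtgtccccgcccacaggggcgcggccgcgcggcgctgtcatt
Slc1a3 (chr15:8710808-8711057, minus strand): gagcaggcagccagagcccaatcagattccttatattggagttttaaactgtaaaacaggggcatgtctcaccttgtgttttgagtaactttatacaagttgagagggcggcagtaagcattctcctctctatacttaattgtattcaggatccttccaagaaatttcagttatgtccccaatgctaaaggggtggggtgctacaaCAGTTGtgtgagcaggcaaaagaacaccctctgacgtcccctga
Slc1a4 (chr11:20332714-20332963, minus strand): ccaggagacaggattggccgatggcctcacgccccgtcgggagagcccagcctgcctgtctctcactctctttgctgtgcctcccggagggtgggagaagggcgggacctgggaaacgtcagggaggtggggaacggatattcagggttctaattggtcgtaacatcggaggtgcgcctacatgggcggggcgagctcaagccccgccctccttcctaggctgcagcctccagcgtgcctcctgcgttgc
The Slc35g1 stretch holds 1 such E-box, that of Slc7a1 holds 2, that of Slc1a3 holds 1 and that of Slc1a4 holds 0. The Slc1a3 stretch also had the lowest content of G and C of the 4, 44.8% against 62.4% to 68.4%.

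Amino acid carriers were the largest class. Slc3a2, the CD98 heavy chain (chromosome 19, 8706882 to 8723369, minus strand), had deposited means of 194.0 in Snai2-/- and 123.1 in control cells, a ratio of 1.58. Slc7a8, a light chain of Slc3a2 that exchanges large neutral amino acids (chromosome 14, 54722209 to 54781946), had means of 8.62 and 2.36, a ratio of 3.65. The authors' deposited table gives it an unadjusted p of 0.00315 and an FDR of 0.356. Of 6 light chains that pair with Slc3a2, only Slc7a8 was listed. Slc7a5, Slc7a6, Slc7a7, Slc7a10 and Slc7a11 were not in the table, so the heavy chain and 1 of its partners were higher together while the other light chains gave no value.

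Of the Slc7 genes that act without a heavy chain, Slc7a1, the main importer of arginine and lysine (chromosome 5, 148327410 to 148399904), had means of 12.9 in Snai2-/- and 6.48 in control cells, a ratio of 1.99. Slc7a4, a relative of these importers whose own transport activity is not established, had means of 5.53 and 1.73, a ratio of 3.21. The authors' library kit does not mark strand, and 13.3% of the exon bases of Slc7a4 overlap P2rx6 on the opposite strand, so reads of the 2 genes cannot be told apart there. P2rx6 was not listed.

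The Slc1 family, which imports glutamate, aspartate and small neutral amino acids, had 3 of its 7 genes listed, all higher. Slc1a3, a glutamate and aspartate importer (chromosome 15, 8634124 to 8710764), had deposited means of 65.5 in Snai2-/- and 30.1 in control cells, a ratio of 2.18. Slc1a4, which exchanges alanine, serine and cysteine (chromosome 11, 20302180 to 20332713), had means of 25.6 and 11.5, a ratio of 2.22. Its p of 0.0493 in the authors' deposited table lay just inside the limit and was the largest of any member. Slc1a2, the other main glutamate importer, had means of 1.49 and 0.0628. That control mean is near 0, so the values are given without a fold.

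Slc36a2 had the smallest p of the class. This carrier moves glycine, alanine and proline together with protons (chromosome 11, 55158470 to 55185077, minus strand), and its deposited means were 178.3 in Snai2-/- and 43.5 in control cells, a ratio of 4.10. An unadjusted p of 0.000612 and an FDR of 0.271 stand beside it in the authors' deposited table. Slc6a15, a sodium-coupled carrier of neutral amino acids, had means of 2.06 and 0.00858 and so was close to 0 in control cells. Without Slc1a2 and Slc6a15, the members of the class whose lower mean was under 1, the median log2 ratio of the other 7 was 1.15. The Slc38 family of glutamine and alanine carriers, with 11 genes in RefSeq, had no listed member.

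**Figure D2:**
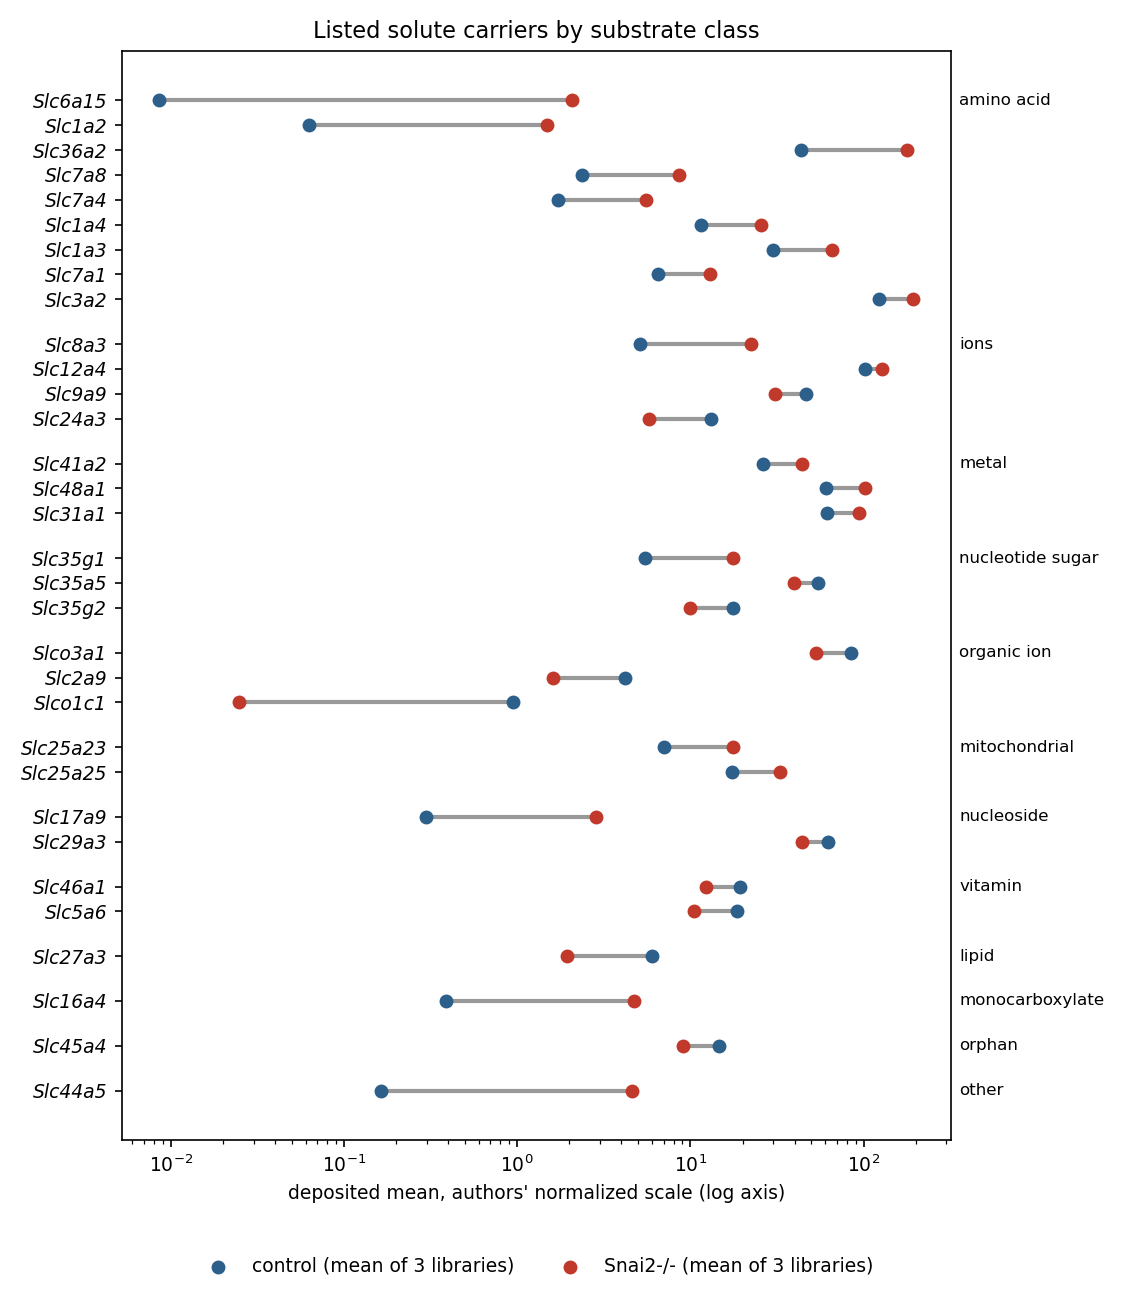
Deposited mean of each listed solute carrier in control (blue) and Snai2-/- cells (red), each over 3 libraries, on a log axis of the authors' normalized scale, with genes in rows by substrate class. A grey line joins the means of a gene, and the 9 amino acid carriers at the top have the red point to the right in each row, from Slc6a15 (2.06 against 0.00858) to Slc3a2 (194.0 against 123.1).

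Genes that respond to amino acid supply were read from the same table. Of 18 genes of the amino acid response, which cells switch on through the factor Atf4 when amino acids are scarce, 3 were listed, each with the higher mean in Snai2-/- cells. The asparagine synthetase gene Asns had means of 34.5 in Snai2-/- and 13.9 in control cells, the serine synthesis gene Psat1 had 14.3 and 4.91, and the mitochondrial folate enzyme gene Mthfd2 had 11.8 and 4.61. In the authors' deposited table their FDR was 0.423 for Asns, 0.616 for Psat1 and 0.588 for Mthfd2. Atf4, Ddit3, Chac1 and Trib3 were not listed. Of 22 genes by which the kinase complex mTORC1 senses amino acids, 2 were listed and 2 were lower. Rptor, the substrate-binding subunit of the complex, had means of 9.10 and 15.2, and the leucine sensor family gene Sesn1 had 17.8 and 28.3. Both counts stand beside 5.32% of all protein-coding genes in RefSeq listed and 49.1% of all listed genes higher. Whether the amino acid response or the sensing by mTORC1 differed between genotypes was not tested.

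Carriers of ions other than phosphate had 4 of 58 genes listed, 2 higher and 2 lower. Slc8a3, a sodium/calcium exchanger of the cell surface (chromosome 12, 81197915 to 81333180, minus strand), had deposited means of 22.5 in Snai2-/- and 5.12 in control cells, a ratio of 4.39. The authors' deposited table gives Slc8a3 an unadjusted p of 0.0129 and an FDR of 0.473. Slc24a3, a sodium/calcium-potassium exchanger that also removes calcium from the cytosol, had means of 5.80 and 13.2, 2.28 times lower. The 2 listed calcium exchangers thus stood in opposite directions. Slc12a4, a potassium-chloride cotransporter that regulates cell volume, had means of 128.1 and 102.0, and its ratio of 1.26 was the smallest difference among the members. Slc9a9, a sodium/proton exchanger of endosomes, had means of 30.9 and 46.3, 1.50 times lower, with a p of 0.0482 in the authors' deposited table.

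No sodium-phosphate cotransporter was listed, neither Slc20a1 and Slc20a2, which serve most cells, nor the 3 genes of the Slc34 family. Of 15 other genes of phosphate and pyrophosphate handling 7 were listed, 6 higher and 1 lower, while 5.32% of all protein-coding genes in RefSeq were listed. Alpl, Dmp1, Smpd3 and Phex are also counted among the osteoblast markers below, so these counts are not separate observations. Phospho1, which releases phosphate inside matrix vesicles, had means of 19.4 in Snai2-/- and 2.22 in control cells, and the vitamin D receptor gene Vdr had 303.7 and 70.3. Alpl, the phosphatase that degrades pyrophosphate, had means of 618.3 and 241.2, Dmp1, a mineral-binding matrix protein, had 716.3 and 83.1, and Smpd3, a sphingomyelinase needed for mineralization, had 102.2 and 15.0. The glycoprotein hormone gene Stc2 had means of 1.49 and 0.302. Phex, an endopeptidase whose loss causes phosphate wasting, was the 1 lower, with 92.2 and 223.2.

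The 3 listed metal carriers were all higher, by less than 2-fold. Slc41a2, a magnesium carrier (chromosome 10, 83230848 to 83337882), had deposited means of 44.2 in Snai2-/- and 26.2 in control cells, a ratio of 1.68, with p 0.0043 and FDR 0.38 in the authors' deposited table. Slc48a1, which returns heme from endosomes and lysosomes to the cytosol, had means of 101.5 and 60.9, a ratio of 1.67. Slc31a1, the copper importer of the cell surface, had means of 93.8 and 61.5, a ratio of 1.53. None of the 10 Slc30 and 14 Slc39 genes, most of them zinc carriers, was listed, nor was Slc40a1, the iron exporter. Of 19 other genes of zinc, iron and copper handling 4 were listed, 3 higher and 1 lower. The listed share of all protein-coding genes in RefSeq was 5.32%. The metallothionein gene Mt1, which buffers zinc and copper, had means of 222.9 and 114.8, the transferrin receptor gene Tfr2 had 14.6 and 5.10 and the ferrireductase gene Steap3 had 140.1 and 82.3. The copper-dependent ferroxidase gene Heph had 79.2 and 159.3.

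Both listed mitochondrial carriers, of 47 Slc25 genes, exchange ATP-magnesium for phosphate under the control of calcium. Slc25a23 (chromosome 17, 57043711 to 57059863, minus strand) had deposited means of 17.6 in Snai2-/- and 6.99 in control cells, a ratio of 2.52. For Slc25a23 the authors' deposited table gives an unadjusted p of 0.000646 and an FDR of 0.271. Slc25a25 had means of 32.9 and 17.3, a ratio of 1.90. No other Slc25 gene was listed, whatever its substrate. Of 17 further mitochondrial carriers and channels without an Slc symbol, Mtch2, an outer-membrane insertase (ratio 1.24), and Sfxn4, of the sideroflexin family (ratio 0.618), were listed. So few listed genes say little about the set, since 5.32% of all protein-coding genes in RefSeq were listed.

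Nucleotide sugar carriers, which supply the Golgi and endoplasmic reticulum with building blocks of glycans, had 3 of 27 Slc35 genes listed. Slc35g1 (chromosome 19, 38395980 to 38405610, plus strand) had the smallest p of any member, 0.00012, at FDR 0.199 by the authors' deposited table. Its deposited means were 17.7 in Snai2-/- and 5.46 in control cells, a ratio of 3.24. Slc35g2, of the same subfamily, stood in the opposite direction with means of 9.95 and 17.6, 1.76 times lower. Both were placed in this class by family alone, since the substrates of the g subfamily are uncertain. Slc35a5, of the subfamily that holds the best known Golgi carriers, had means of 39.7 and 54.7, 1.38 times lower. Of 27 genes that make or use nucleotide sugars 2 were listed, beside 5.32% of all protein-coding genes in RefSeq. The core fucosyltransferase gene Fut8 had means of 119.6 in Snai2-/- and 81.7 in control cells, whereas Gmds, which starts GDP-fucose synthesis, had 34.3 and 49.8.

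No sugar carrier was listed, neither Slc2a1, the glucose importer of most cells, nor any other hexose carrier. Slc2a9, which belongs to the hexose family by sequence but carries urate, was counted with organic ions. Counted by family it would be a listed, lower member, so the empty sugar class depends on that choice. Of 18 genes of glycolysis and its control 2 were listed, beside 5.32% of all protein-coding genes in RefSeq. Pkm, which makes pyruvate, had means of 165.1 in Snai2-/- and 105.4 in control cells, and the lactate dehydrogenase gene Ldhb had 68.0 and 98.7. Slc16a4, of the monocarboxylate carrier family that includes the lactate carriers, had means of 4.74 and 0.39. The authors' deposited table gives it p 0.00158 and FDR 0.322, and it was 1 of 14 genes of its family listed.

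Of 58 carriers of organic ions 3 were listed, each lower in Snai2-/- cells. Slco3a1, an organic anion carrier that moves prostaglandins, had deposited means of 52.9 in Snai2-/- and 84.6 in control cells, 1.60 times lower. Slc2a9 had means of 1.61 and 4.17, 2.59 times lower. Slco1c1, a carrier of thyroid hormone, had means of 0.0249 and 0.94, with p 0.0158 and FDR 0.494 in the authors' deposited table. Its Snai2-/- mean is near 0 and its control mean is under 1, so no fold is given. None of the 25 Slc22 genes, the largest family of organic ion carriers in RefSeq, was listed.

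Of 12 vitamin carriers 2 and of 6 lipid carriers 1 were listed, each lower in Snai2-/- cells, and the others gave no value. Slc46a1, the proton-coupled folate carrier, had deposited means of 12.3 in Snai2-/- and 19.3 in control cells, 1.57 times lower (p 0.0315 and FDR 0.592 in the authors' deposited table). Slc5a6, which imports biotin and pantothenate, had means of 10.4 and 18.5, 1.77 times lower. For Slc5a6, 9.92% of the exon bases overlap Atraid on the opposite strand. Slc27a3, of the fatty acid transport family, had means of 1.95 and 5.98, 3.07 times lower (p 0.0311 and FDR 0.591 in the authors' deposited table). Slc45a4, whose substrate is uncertain, had means of 9.03 and 14.7, 1.62 times lower (p 0.0459 and FDR 0.64 in the authors' deposited table).

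Of 10 nucleoside and nucleotide carriers 2 were listed, in opposite directions. Slc29a3, a nucleoside carrier of lysosomes, had deposited means of 44.1 in Snai2-/- and 62.7 in control cells, 1.42 times lower, with p 0.0146 and FDR 0.484 in the authors' deposited table. Slc17a9, which loads ATP into vesicles, had means of 2.85 and 0.299. The choline-like carrier gene Slc44a5 had means of 4.62 and 0.164, with p 0.00804 and FDR 0.434 in the authors' deposited table.

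A mean under 1 in the lower group was found for 6 members. They were Slc6a15, Slc1a2, Slc16a4, Slc17a9 and Slc44a5, all near 0 in control cells, and Slco1c1, near 0 in Snai2-/- cells. These 6 are 18.8% of the members, beside 15.3% of all listed genes with so low a mean. Their ratios rest on these low means and are not given. With libraries not analysed here, it is not known whether 1 library or several gave the reads. The members with a mean of at least 10 in the higher group, 13 higher and 9 lower, had a median log2 ratio of 0.63.

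**Figure D3:**
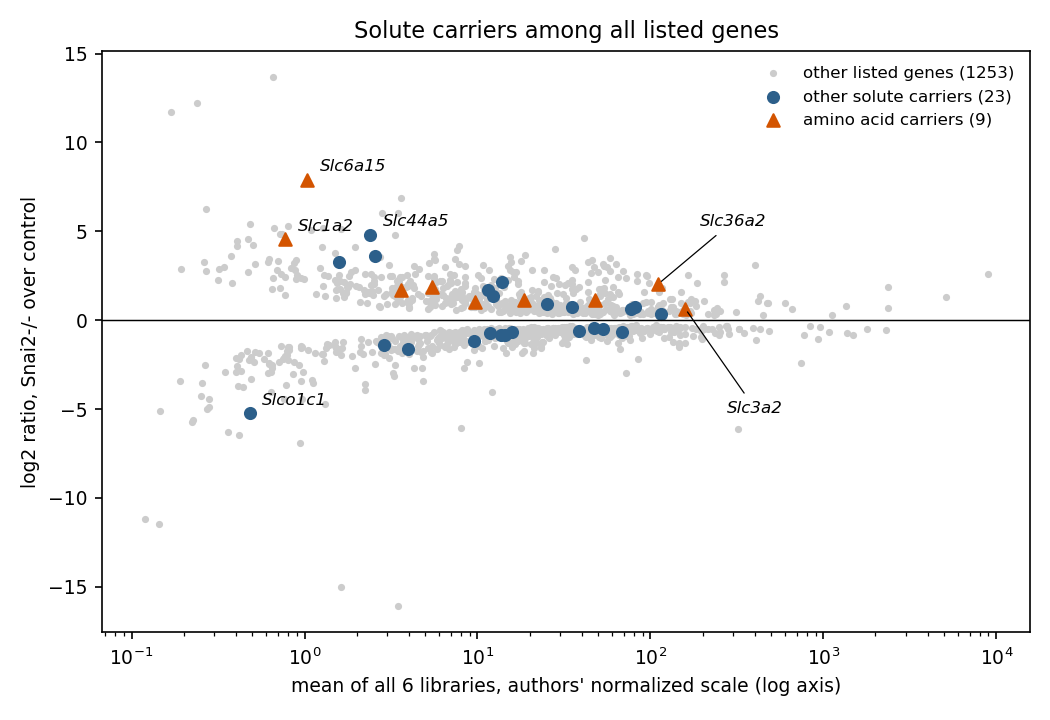
Log2 ratio of Snai2-/- over control means (vertical axis) against the mean of all 6 libraries on the authors' normalized scale (log horizontal axis) for the 1285 listed genes. Amino acid carriers (orange triangles) lie above 0 at low and high means, other solute carriers (blue) lie on both sides, and few listed genes lie near 0.

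Other transport genes and partner proteins were described from the same table. Their counts are to be read beside the 5.32% of all protein-coding genes in RefSeq that were listed. No set was tested against that share. Of 45 ABC transporters, which pump substrates with ATP, 5 were listed, 4 higher and 1 lower. Abca2 had means of 11.4 in Snai2-/- and 2.64 in control cells, a ratio of 4.32. Abca3 had 32.5 and 3.22, a ratio of 10.1, so both ratios rest on low control means. Abcg1 had 3.86 and 0.994, and with that control mean under 1 no fold is given. Abce1, a ribosome recycling factor of that family, had a ratio of 1.28, while Abca9 had a ratio of 0.533. Of 27 carriers of the major facilitator type without an Slc symbol, Spns2, the exporter of sphingosine phosphate, had a ratio of 4.58 and the lysosomal Mfsd8 a ratio of 1.43. No aquaporin of 11 was listed. Among 17 partner and regulator genes of solute carriers, Arl6ip5, which restrains a glutamate carrier, had a ratio of 1.41, and the kinase genes Wnk4 and Sgk1 had ratios of 0.519 and 0.57.

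Markers of other marrow cell types were read from the same table, although the gate on CD45, Ter119 and CD31 should remove blood cells and endothelium and the gate on Nes-GFP should select stroma. Of 19 osteoblast markers 9 were listed, 8 with higher means in Snai2-/- cells, and the listed means summed to 24220 in Snai2-/- and 6065 in control cells. Most of both sums came from Col1a1 (15244.5 and 2545.5) and Spp1 (7256.7 and 2930.9), with FDR 0.582 and 0.65 in the authors' deposited table. Phex was the 1 lower marker. Alpl, Dmp1, Smpd3 and Phex are also among the phosphate genes above. Of all protein-coding genes in RefSeq, 5.32% were listed. Of 18 neutrophil markers 7 were listed, all higher, with sums of 820.1 and 186.4. Of 14 monocyte and macrophage markers only Adgre1 was listed, with means of 0.695 in Snai2-/- and 0.056 in control cells, and of 18 erythroid markers only Car1, with 137.1 and 45.7. Of 17 endothelial markers 3 were listed, Flt4 higher (6.85 and 3.28), Vwf lower (1.38 and 23.0) and Stab1 lower (2.73 and 6.61). No marker of osteoclasts (10) or lymphocytes (16) was listed. Of 16 MSPC markers 2 were listed, Ebf1 and Angpt1, both lower, with sums of 336.4 and 533.7. Nes, Lepr, Cxcl12 and Kitl were not listed, so the labelled cell type could not be checked against their levels. The part of these cell types in the values of the solute carriers was not tested.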

How the data were processed

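RNA of 3 control and 3 Snai2-/- libraries was measured by sequencing SMART-Seq v4 cDNA made into Nextera XT libraries, per the labels' protocols. These kits leave strand unmarked, and the protocols mention no molecular identifiers. Trim Galore, HTSeq, edgeR 3.12.0 and mm10 are named in the submitters' processing notes without roles. The sources used here give no aligner, annotation or model. Per the file headers, the deposited table gives each gene a total and a least-squares mean per genotype as a normalized signal, a ratio, a signed fold change (treated as a score), a p-value and a step-up FDR by the authors. Mutant and Wildtype were read as Snai2-/- and Control. In 1285 of 1285 rows the total was 3 times the sum of the means, and 0 totals were whole. No counts per library were used, depth per library is unknown, and p-values may measure partly technical spread.

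No model was fitted here. Log2 ratios, counts and medians were computed from the means (Python 3.11.15, numpy 2.4.6, pandas 2.3.3, matplotlib 3.10.9). The 16718 tests were recovered from the step-up formula, as the maximum of FDR times rank over p, a step that recovered the true number in 10 of 10 simulated tables. Substrate classes, companion lists and markers were written by hand, and the members and lists were chosen with earlier results of these data known. An item left out of 1 companion list is not reported here. Every listed member was named, with p and FDR for the 5 smallest p and for the smallest of each class. Searches for CANNTG and TGATGNAA, the limit of 1 on the lower mean, and further genes' p were added after values were seen, and other motifs that were looked at are not reported. Coordinates are from GENCODE M21 on GRCm38, where 32 of 32 members matched 1 gene, and 8 share exon bases with a gene on the opposite strand, none of those genes listed. Alternatives were other limits on p, FDR, fold and mean, pseudocounts, centring and another class for uncertain substrates.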

Additional observations from a re-analysis of the deposited data

How the results depend on the processing

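No paired analysis was possible because only genotype means were used, so left-out libraries, a replicate block, other normalizations and DESeq2 were not run, and whether 1 library decides a value is not known for any gene. The 32 listed members became 18 (14 higher, 4 lower) with the authors' p below 0.02, 12 (11 higher, 1 lower) below 0.01, 17 (13 higher, 4 lower) at 2-fold or more, and 0, 0 and 1 at FDR limits of 0.05, 0.1 and 0.25. The share of higher members therefore depends on the limit. Among all listed genes, 631 were higher and 654 lower, and at 2-fold or more 353 were higher and 237 lower. A rise of the higher share at that limit is thus not particular to the members. For the limits on p, the split of all listed genes was not counted. The members' median log2 ratio of 0.74 was 0.57 with a pseudocount of 5 and 0.63 among members with a higher mean of at least 10. Log2 ratios centred on the median of all listed genes (-0.36), a scale chosen after seeing the data, gave 1.10 for the members and 2.04 for the amino acid class, with 20 higher and 12 lower as before. Centring adds the same amount to each gene, so these larger medians were fixed in advance and are no check of the result. The amino acid median of 1.68 was 1.23 with a pseudocount of 1, 1.12 among the 5 genes with a higher mean of at least 10 and, also chosen after seeing the data, 1.15 without the genes whose lower mean was under 1. The organic ion median of -1.37 was -0.92 with a pseudocount of 1 and -0.68 for the 1 gene with a higher mean of at least 10. With the Slc35f and Slc35g genes moved to the orphan class, the nucleotide sugar class held 0 higher and 1 lower member, and its median stayed at -0.46. Of 22 medians under an alternative 22 kept their sign, which says little, since a pseudocount cannot change the direction of a gene.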

Other observations

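Pumps and channels that set the gradients used by many solute carriers were read from the table by their symbols, a choice made after values were seen. Of 8 sodium pump subunits 2 were listed, both beta subunits with higher deposited means in Snai2-/- cells. Atp1b1 had means of 100.01 in Snai2-/- and 12.6 in control cells, and Atp1b3 had 246.3 and 115.2. Of 92 potassium channel genes 3 were listed, all higher. The calcium-activated channel gene Kcnma1 had means of 9.27 and 1.90, the leak channel gene Kcnk1 had 20.4 and 2.91, and Kcnj15, an inward rectifier, had 5.05 and 0.424. Of 22 TRP channel genes the cation channel genes Trpv2 (27.1 and 15.7) and Trpv4 (12.9 and 5.46) were higher and Trpc4 (0.0656 and 1.45) lower. No calcium channel (26), sodium channel (14) or Clcn chloride channel gene (9) was listed. Beside these counts, 5.32% of all protein-coding genes in RefSeq were listed, and 49.1% of all listed genes were higher. The potassium channel count lies below that listed share, and no set of pumps or channels was tested.

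By position, 5 of the 32 solute carriers had a listed gene as their next protein-coding neighbour in RefSeq order, 15.6%, beside 14.5% of the 1166 listed genes that could be placed. Slc1a2 lies between Pamr1 and Cd44, for which the authors' deposited table gives ratios of 6.80 and 1.61, both above 1 like its own. Slco3a1, with 0.626, lies beside St8sia2, with 0.554, both below 1 in the authors' deposited table, and Slc44a5, higher, lies beside Acadm, with 1.44. The other pairs went opposite ways in the authors' deposited table, Slc29a3 with 0.703 beside Unc5b with 2.36, and Slc45a4 with 0.617 beside Dennd3 with 5.51.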
